A study of Mus musculus with 8 samples.

Results

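The genes described here are 35 mouse genes of the type I interferon response, chosen by symbol as antiviral effectors, RNA sensors and transcription factors. All 35 were found among the 56953 Ensembl gene identifiers of the count table. Their RNA was measured in CT26, a colorectal carcinoma cell line that arose in a BALB/c mouse, grown as a tumour transplanted into mice or as a cell culture. Transplanted tumours had been treated with normal saline or with mLJZD, an abbreviation that the labels leave unexpanded. Cultures had been kept for 48 hours in medium with 10% control serum or with 10% serum containing mLJZD. Each of the 4 groups held 2 libraries. The line and the library kit were shared by all groups. The sources used here do not give the dose in the tumours, the host mice, their age or the animal that gave the serum. CT26 is a single line, so the libraries say nothing about other tumours, and a tumour library also holds RNA of host cells. Whether the libraries of a group came from separate animals or cultures is not stated in the labels. Any p-value below thus weighs a difference against the spread of 2 libraries a group, a spread that may be technical. The series asked which transcripts mLJZD changes in the tumours and in the cultured cells.

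Type I interferons are secreted proteins that cells release when sensors meet foreign or misplaced nucleic acid. They bind a receptor made of Ifnar1 and Ifnar2, whose kinases Jak1 and Tyk2 activate Stat2. Stat2 joins Irf9 in a complex that binds a short DNA element in front of the response genes. In tumours this response can come from cancer cells, from infiltrating immune cells or from stroma, and it is known for its part in antigen presentation and in T cell recruitment. A bulk library cannot tell fewer cells of a type from less RNA per cell.

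The element bound by that complex, the interferon-stimulated response element, is built of GAAA repeats. Its core was searched as GAAA, any 2 bases and again GAAA, on both strands of RefSeq promoter windows of 300 bases, from 250 bases before to 50 bases after each transcript start, on the build GRCm38.p6. A window was at hand for 26 of the 35 genes, and 13 of these 26 (50%) held at least 1 match. Among all 27025 genes with a window the share was 3.99%. In a separate list of further interferon-stimulated genes, used again below, 24 of 44 with a window (54.55%) held a match. A longer form, in which CT follows the second GAAA, so that every match is also a match to the first, was found for 7 of the 26 (26.9%) against 0.303% of all genes. In the separate list it was found for 14 of the 44 (31.8%). A match is a description of letters and not a measured binding site. The 150 bases before the start are shown for 6 genes whose values carry the results below, with every match to the core in capitals and each sequence read from 5′ to 3′ on the gene's own strand. On the other strand the core reads TTTC, any 2 bases and TTTC.
Isg15 (chr4:156200819-156200968, minus strand): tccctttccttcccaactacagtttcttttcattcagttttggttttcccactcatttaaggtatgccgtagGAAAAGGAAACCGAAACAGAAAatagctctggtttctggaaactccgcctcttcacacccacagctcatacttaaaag
Bst2 (chr8:71537473-71537622, minus strand): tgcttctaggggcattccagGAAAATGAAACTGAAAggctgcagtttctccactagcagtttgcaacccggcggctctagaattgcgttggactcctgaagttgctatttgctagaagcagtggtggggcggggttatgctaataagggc
Oas1a (chr5:120907526-120907675, minus strand): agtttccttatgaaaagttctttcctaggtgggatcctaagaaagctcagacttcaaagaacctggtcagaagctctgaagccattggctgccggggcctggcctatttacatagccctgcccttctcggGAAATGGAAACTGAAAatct
Oas3 (chr5:120777660-120777809, minus strand): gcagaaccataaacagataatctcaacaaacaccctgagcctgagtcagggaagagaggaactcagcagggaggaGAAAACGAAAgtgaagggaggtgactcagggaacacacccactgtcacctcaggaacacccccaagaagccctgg
Ifit1 (chr19:34640739-34640888, plus strand): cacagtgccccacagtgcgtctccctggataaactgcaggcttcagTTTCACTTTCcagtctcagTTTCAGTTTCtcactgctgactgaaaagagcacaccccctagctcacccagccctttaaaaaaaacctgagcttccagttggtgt
Rsad2 (chr12:26456453-26456602, minus strand): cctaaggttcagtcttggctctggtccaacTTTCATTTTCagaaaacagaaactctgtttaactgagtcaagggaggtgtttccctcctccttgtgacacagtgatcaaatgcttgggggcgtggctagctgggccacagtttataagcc

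Isg15 held 3 overlapping matches, at bases -78 to -57 from the start. Bst2 and Oas1a held 2 overlapping matches each, and Ifit1 held 2 separate ones. The genes with a match did not share 1 direction of change. Of these 6 genes, Rsad2 and Isg15 rose and Bst2, Oas1a and Oas3 fell in the tumours, as given below, while Ifit1 did not pass there.

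**Figure D1:**
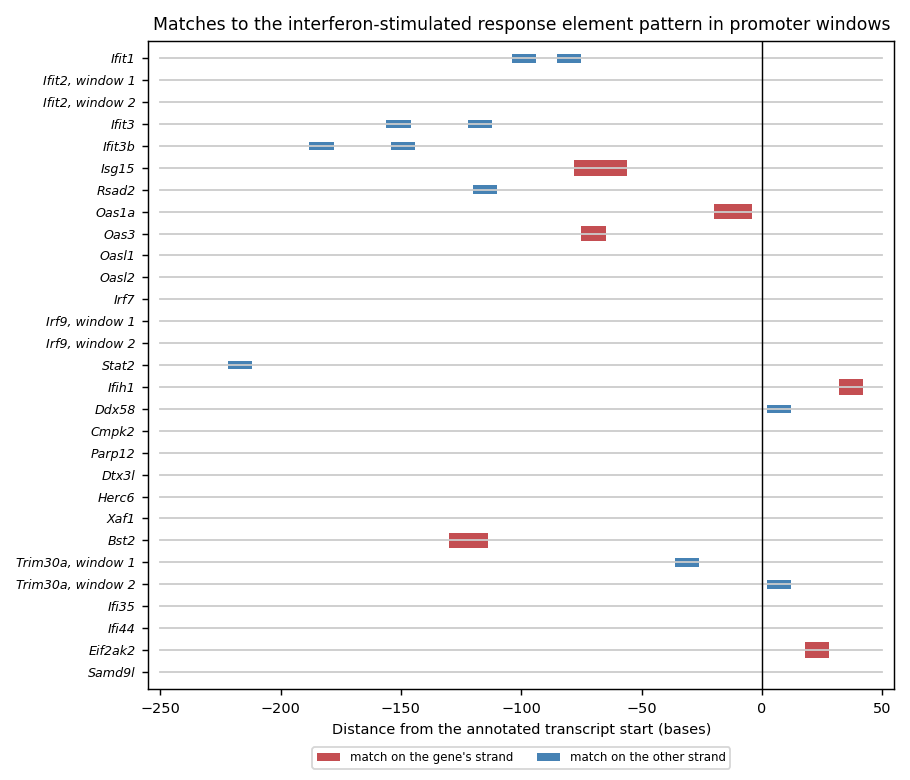
Position of each match to the core of the interferon-stimulated response element in the promoter windows of 26 genes. The x axis gives the distance in bases from the annotated transcript start, each grey line is 1 window (3 genes have 2), red boxes are matches on the gene's strand and blue boxes matches on the other strand. Matches lie before the start in most of the 13 genes that have one, and after it in Ifih1, Ddx58, Eif2ak2 and the second window of Trim30a.

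Library totals ran from 16594912 to 29363861 counts. Levels are given as CPM, counts scaled to the library total. The 35 genes together took 0.305% of the counts in each of the saline tumours, 0.264% and 0.271% in the mLJZD tumours, 0.119% and 0.118% in the control-serum cultures, and 0.137% and 0.140% in the mLJZD-serum cultures. Summed over the 35 genes the tumours treated with mLJZD were thus lower than the saline tumours and the cultures with mLJZD serum higher than the control cultures, with no overlap between groups in either material. The epithelial list of 7 markers was low in all libraries (7.05 to 41.6 CPM in sum), with Cdx2 at 0 in every tumour library and Epcam at 0 in every culture library. Ptprc, the marker of all leukocytes, stood at 107 to 122 CPM in the tumours and at 0 to 0.0681 CPM in the cultures.

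Levels per kilobase of the longest annotated transcript give a rough order of the genes. Division by length does not remove the trends with length between groups that are given below. On this scale Bst2 had the highest mean level of the 35 genes in every group. Bst2 encodes tetherin, a membrane protein that holds budding virus particles on the cell surface. Its mean level was 406 CPM per kilobase in saline tumours, 359 in mLJZD tumours, 394 in control-serum cultures and 231 in mLJZD-serum cultures. Isg15, a ubiquitin-like protein that is attached to other proteins, came second in both tumour groups at 72.3 and 92.5 CPM per kilobase, followed by Irf7 at 70.6 and 54.9. This order rests on a length of 3240 bases for Irf7. Its longest basic protein-coding transcript has 2237 bases, and with that length Irf7 would stand above Isg15 in saline tumours, though not in mLJZD tumours. In both culture groups the second place was held by Oasl1, an OAS-like protein that restrains translation of Irf7, at 73.4 and 92.5 CPM per kilobase. Isg15 followed there at 50.3 and 47.4. At the low end, Mx2 had the lowest mean in saline tumours (3.25 CPM per kilobase) and Mx1 in mLJZD tumours (3.95) and in both culture groups (0.044 and 0.122). Both encode dynamin-like antiviral GTPases, and many laboratory mouse strains carry a defective Mx1.

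**Figure D2:**
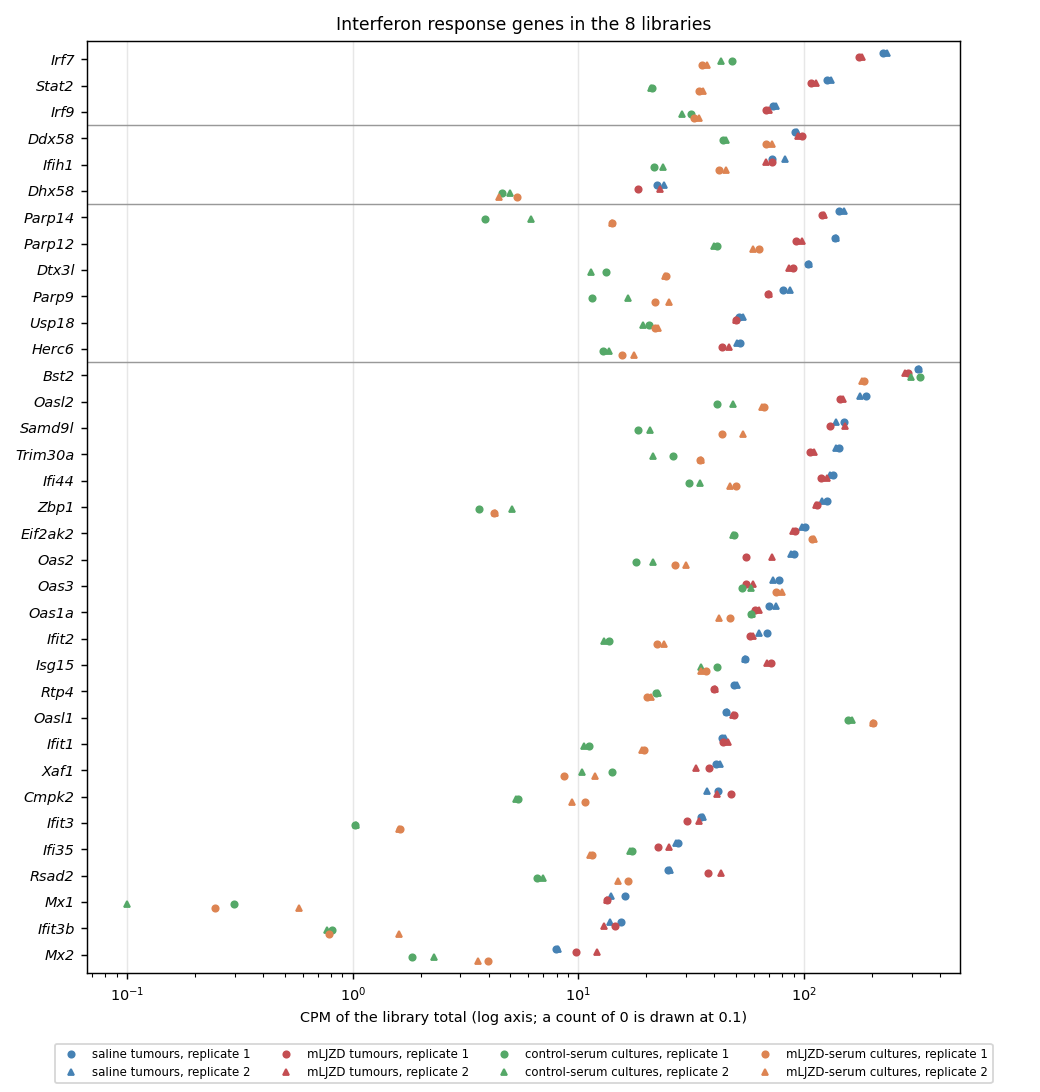
Level of each of the 35 genes in each of the 8 libraries, in CPM on a log axis, with transcription factors at the top, then sensors, ubiquitin-like and ADP-ribose modifiers, and effectors. Circles and triangles are replicates 1 and 2, and a count of 0 is drawn at the left edge. Most genes lie higher in the tumours (blue, red) than in the cultures (green, orange), while Oasl1 lies higher in the cultures and Bst2 at a like level in all groups except the mLJZD-serum cultures.

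In the tumours, the response fell for a good share of its genes and rose for a few. Of the 35 genes, all of them tested, 13 fell and 3 rose, and 19 did not pass the edgeR quasi-likelihood test at an adjusted p under 0.05. The 13 are 37.1% of the genes and the 3 are 8.57%. Among all 15417 genes tested in this comparison 31.4% were called, 16.0% lower and 15.4% higher. The median log2 fold change of the 35 genes was -0.13, against 0.00092 over all genes, and 27 of the 35 lay below 0 against 49.9% of all genes. With the length and GC offset described below for the cultures, 3 rose and 16 fell, against 16.6% and 16.8% of all genes, 33.4% in all. The changes were small: the log2 fold changes ran from -0.51 to 0.71.

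Rsad2, which makes viperin, an enzyme that produces a chain-terminating antiviral nucleotide, read 25.0 and 25.4 CPM in the saline tumours and 37.7 and 42.7 CPM in the mLJZD tumours. Both treated libraries lay above both saline libraries, with a log2 fold change of 0.71 (edgeR, SE 0.08 and adjusted p = 3.84e-06). Isg15 read 54.6 and 54.7 CPM under saline and 71.5 and 68.3 CPM under mLJZD. The groups did not overlap, and the log2 fold change was 0.39 (edgeR, SE 0.06 and adjusted p = 3.91e-05). With the length and GC offset it was 0.25 (edgeR adjusted p = 0.000631). Mx2 read 7.97 and 8.13 CPM against 9.77 and 12.1 CPM, again without overlap, with a log2 fold change of 0.47 (edgeR, SE 0.15 and adjusted p = 0.0204). The call for Mx2 was the least stable of the 3, with adjusted p-values from 0.00584 to 0.158 over the alternatives, while those for Rsad2 and Isg15 held under every alternative run.

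Among the genes that fell, the largest change was that of Parp12, an ADP-ribosyltransferase with antiviral activity. It read 138 and 139 CPM under saline and 92.1 and 98.1 CPM under mLJZD, a log2 fold change of -0.51 (edgeR, SE 0.05 and adjusted p = 1.07e-06). The oligoadenylate synthetases sense foreign RNA and make oligoadenylates, an antiviral signal. Oas2 read 90.0 and 87.8 CPM against 55.1 and 71.9 CPM (log2 fold change -0.46 with an SE of 0.08 in edgeR, adjusted p = 0.000228). Oas3 read 77.1 and 72.7 CPM against 55.1 and 59.3 CPM (log2 fold change -0.36 with an SE of 0.06 in edgeR, adjusted p = 9.58e-05). Neither overlapped, although the 2 treated libraries of Oas2 stood further apart than those of Oas3. Trim30a, a tripartite-motif protein, read 142 and 138 CPM against 106 and 111 CPM (log2 fold change -0.34 with an SE of 0.05 in edgeR, adjusted p = 9.82e-05). The remaining effectors that fell were Oasl2 (log2 fold change -0.29), Rtp4 (-0.27), Oas1a (-0.20) and Bst2 (-0.15). Without the offset the call for Bst2 ended when any of the 4 libraries was left out. With the length and GC offset its log2 fold change was -0.26, and it was called. Reads of Oas1a and its close copies, of Oasl1 and Oasl2, of Mx1 and Mx2, of Trim30a and its copies, and of the Ifit genes may be shared, since the sources used here do not say how reads that fit several places were counted.

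Of the 3 transcription factors, 2 fell in the tumours. Irf7, the factor that amplifies interferon production, read 224 and 233 CPM under saline and 176 and 180 CPM under mLJZD, a log2 fold change of -0.33 (edgeR, SE 0.05 and adjusted p = 0.00011). Stat2 read 126 and 132 CPM against 108 and 113 CPM (log2 fold change -0.20 with an SE of 0.05 in edgeR, adjusted p = 0.00942). Irf9 read 73.2 and 75.1 CPM against 67.9 and 69.7 CPM and did not pass (log2 fold change -0.08, edgeR adjusted p = 0.292). All 3 lay lower in both treated libraries, with a wide margin for Irf7 alone.

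None of the 3 RNA sensors passed in the tumours. Ddx58, which encodes RIG-I, read 91.6 and 93.0 CPM under saline and 98.0 and 93.7 CPM under mLJZD. Ifih1, which encodes MDA5, read 72.0 and 81.9 CPM against 72.3 and 67.9 CPM, with overlap. Dhx58, which encodes their regulator LGP2, read 22.3 and 24.0 CPM against 18.4 and 23.0 CPM, also with overlap. Of the 6 modifiers, 4 fell: Parp12, Parp14 (-0.24), Parp9 (-0.23) and Dtx3l (-0.22). Parp9 and Dtx3l form a ubiquitin ligase complex, and Parp14 is a related ADP-ribosyltransferase. Usp18, the protease that removes Isg15 from proteins and restrains the receptor, read 51.7 and 53.7 CPM under saline and 49.7 and 50.02 CPM under mLJZD and did not pass, so Isg15 rose and its protease was not called.

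The Ifit genes encode proteins that bind RNA lacking the marks of the host's own messages. Ifit1 read 43.3 and 44.8 CPM under saline and 43.8 and 45.8 CPM under mLJZD, and Ifit3 read 34.9 and 35.6 CPM against 30.3 and 34.4 CPM. Ifit2 lay lower in both treated libraries, at 68.9 and 63.2 CPM against 57.4 and 59.3 CPM, and did not pass (log2 fold change -0.15, edgeR adjusted p = 0.0656). It was called with the offset (-0.18, edgeR adjusted p = 0.0134) and with scaling to library totals. With TMM and no offset none of the 4 Ifit genes passed. Herc6, the mouse ligase that attaches Isg15, and Xaf1, a protein that promotes cell death, also passed with the offset, with log2 fold changes of -0.18 and -0.20, and not with TMM alone. Scaling to library totals called both as well, upper-quartile scaling called Herc6 and the crossed replicate block called Xaf1.

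The count of genes that fell depended on single libraries. Fewer genes passed over the whole table too when a library was left out. The counts that follow thus cannot be set against the shares above, and they do not show an excess of falls. Without mLJZD tumour replicate 1 only Parp12 passed, without mLJZD replicate 2 there were 5 (Oas2, Oas3, Irf7, Parp12 and Trim30a), and without saline replicate 1 or 2 there were 12 and 7. The median of the 35 genes stayed between -0.15 and -0.11 in these 4 fits, against -0.0036 to 0.0029 over all genes.

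Markers of other cell types moved in the same tumours. The sum of 12 macrophage and monocyte markers was 1643 and 1644 CPM in saline tumours and 1449 and 1388 CPM in mLJZD tumours, and 4 of the 12 fell while 1 rose. The 8 markers of T and NK cells summed to 67.8 and 69.5 CPM against 59.8 and 54.5 CPM, but of the 8 only Cd8a was called (log2 fold change -0.55), and the others lay between -0.66 and 0.48. The 7 markers of B and plasma cells went the other way in sum, from 47.8 and 49.0 CPM to 378 and 343 CPM. Of the 6 tested, 3 were called higher and 3 were not called. The sum of the 8 neutrophil markers rose from 18.4 and 18.6 CPM to 33.8 and 30.7 CPM. Of the 6 tested, 5 were called higher and 1 was not called, with Mpo, Elane and Ly6g at 0 in the saline tumours. The 8 markers of plasmacytoid and conventional dendritic cells summed to 189 and 190 CPM and then to 148 and 150 CPM. Nearly all of that sum was Tcf4, which fell (-0.39). Of the 7 tested, Flt3 rose (1.19), the other 5 were not called, and the median was 0.32. Skeletal muscle markers fell from 2452 and 2477 CPM to 419 and 414 CPM, all 8 of them called. The 7 epithelial markers summed to 22.5 and 23.0 CPM under saline and to 7.86 and 7.05 CPM under mLJZD, with 2 of the 3 tested called lower. The 6 fibroblast markers summed to 3194 and 3210 CPM and then to 3636 and 3551 CPM, with 3 called higher and 3 not called. Ptprc read 110 and 107 CPM against 122 and 114 CPM. The part of these shifts in the interferon response genes was not tested.

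**Figure D3:**
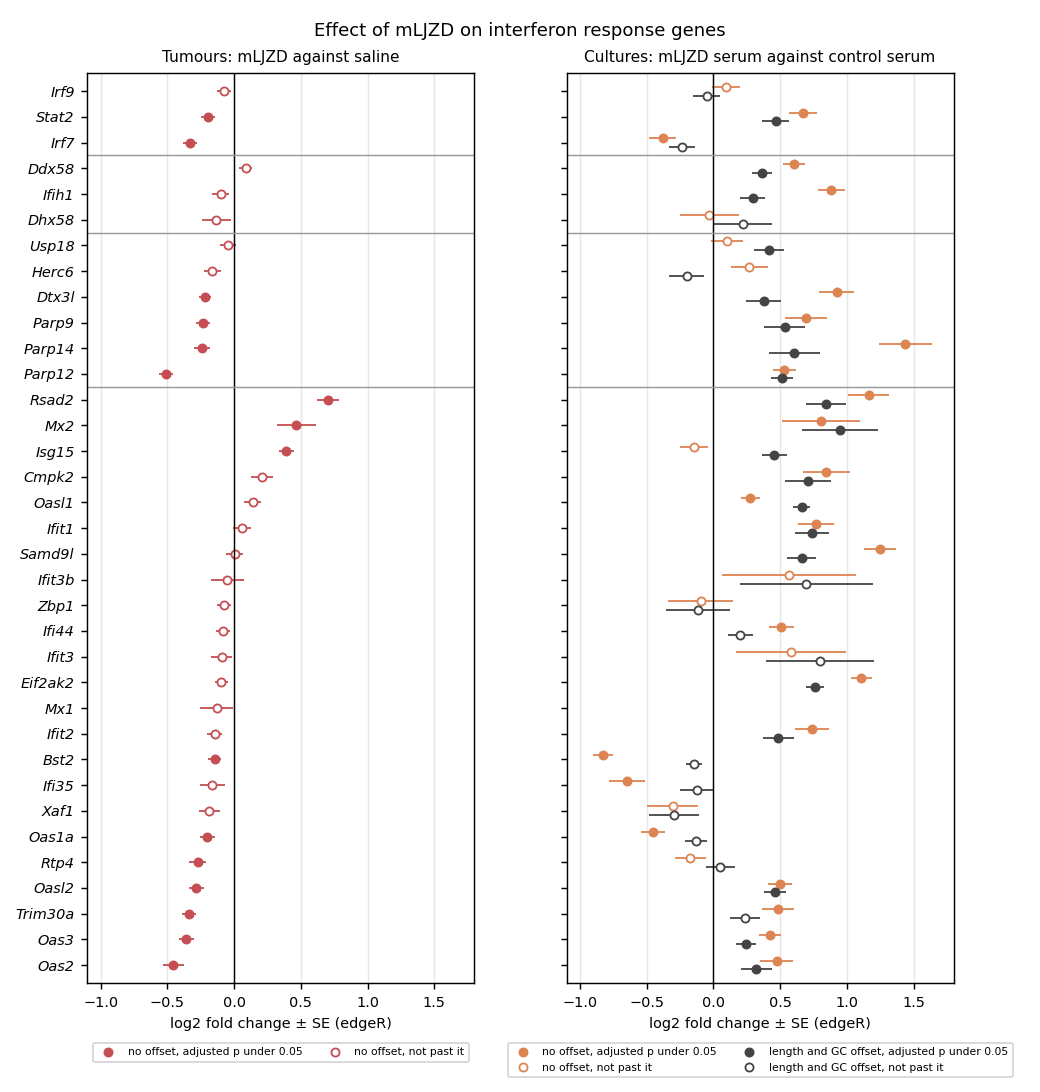
Log2 fold change of each gene with its standard error from edgeR, in tumours (left, mLJZD against saline) and in cultures (right, mLJZD serum against control serum), in the same order by role; filled points passed an adjusted p under 0.05 and open points did not. In the cultures orange points are the fit without and dark points the fit with the length and GC offset. Tumour values lie between -0.51 and 0.71 with most below 0, and culture values mostly above 0, with Bst2, Ifi35 and Oas1a moving toward 0 under the offset.

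In the cultures, most of the chosen genes that could be tested were higher with serum containing mLJZD. Of the 34 genes tested, 20 rose (58.8%), 4 fell (11.8%) and 10 did not pass. Among all 13299 genes tested 55.4% were called, 28.8% higher and 26.6% lower. The median log2 fold change of the 34 genes was 0.51, against -0.01 over all genes. It was 0.13 over the further interferon-stimulated genes given below, so the rise of the 34 does not speak for the whole response. Mx1 was not tested, with counts of 7 and 0 in the control cultures and 5 and 17 in the mLJZD-serum cultures.

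Transcript length bears on every culture value. Over all protein-coding genes the median log2 fold change rose with the length of the longest transcript, from -0.76 for transcripts up to 1000 bases to 0.32 for those of 4000 to 6000 bases and 1.00 above 8000 bases. The response genes have transcripts of 756 to 7417 bases with a median of 3325, close to the median of 3096 bases over all genes tested. Across the 34 genes the log2 fold change followed length with a Spearman correlation of 0.64 (0.57 across all genes), given as a description over genes that share libraries. In each length class that held response genes their median lay above that of the class: -0.49 against -0.76 up to 1000 bases (2 genes), -0.04 against -0.48 from 1000 to 2000 (6 genes), 0.28 against -0.21 from 2000 to 3000 (5 genes), 0.50 against 0.04 from 3000 to 4000 (11 genes), 0.89 against 0.32 from 4000 to 6000 (9 genes), and 1.44 against 0.73 from 6000 to 8000 (1 gene). In the tumours the same correlation was -0.17 across the 35 genes. Over all protein-coding genes the tumours also had a trend with length, smaller and in the other direction. The median there was 0.09 up to 1000 bases and -0.08 above 8000 bases.

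Each culture value was therefore also computed with an offset per library that takes out the trend of the counts with length and GC content of the transcript. With it 20 of the 34 genes rose, 18 of them the same genes, and none fell. Isg15 and Usp18 joined the genes that rose, and the calls for Trim30a and Ifi44 ended. The median was 0.40, and the correlation with length was 0.09. Among all genes 36.9% were then called, 17.8% higher and 19.1% lower. With the lengths of the longest basic protein-coding transcripts in the offset, 17 rose and none fell. In the shortest class a residue of the trend was left, with a median of -0.19 over all genes up to 1000 bases.

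**Figure D4:**
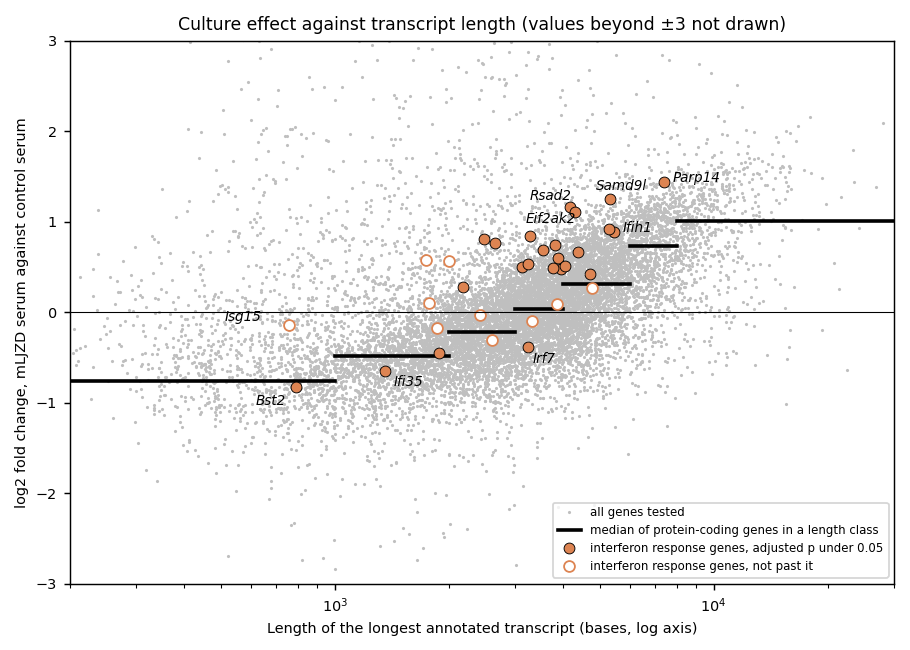
Log2 fold change in the cultures (mLJZD serum against control serum, no offset) against the length of the longest annotated transcript on a log axis, for all genes tested (grey, values beyond ±3 and lengths outside the axis not drawn) and for the interferon response genes (orange, filled where the adjusted p is under 0.05). Black bars are medians of protein-coding genes in length classes and climb from -0.76 to 1.00. Parp14, Samd9l, Rsad2 and Eif2ak2 lie above the bar of their class, and Bst2 lies near its bar.

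The 4 largest rises were those of Parp14, Samd9l, Rsad2 and Eif2ak2, whose transcripts have over 4000 bases, and each was smaller with the offset. Parp14 read 3.84 and 6.17 CPM in the control cultures and 14.1 and 14.0 CPM with mLJZD serum, a log2 fold change of 1.44 (edgeR, SE 0.20 and adjusted p = 2.69e-05) and of 0.61 with the offset (edgeR, SE 0.19 and adjusted p = 0.024). Samd9l, an antiviral protein that restrains translation and growth, read 18.4 and 20.8 CPM against 43.2 and 53.5 CPM, a log2 fold change of 1.25 (edgeR, SE 0.12 and adjusted p = 8.7e-07) and of 0.66 with the offset (edgeR adjusted p = 0.000417). Both groups were far apart in both genes. Rsad2 read 6.53 and 6.98 CPM against 16.5 and 15.0 CPM, with log2 fold changes of 1.16 (edgeR, SE 0.15 and adjusted p = 1.79e-05) and 0.85 with the offset (edgeR adjusted p = 0.000754). Eif2ak2 encodes PKR, the kinase that stops translation when it binds viral RNA. It read 48.9 and 48.6 CPM against 108 and 111 CPM, with log2 fold changes of 1.11 (edgeR, SE 0.08 and adjusted p = 6.04e-08) and 0.76 with the offset (edgeR adjusted p = 6.98e-06). The 2 libraries of each group were nearly equal in this gene. Dtx3l read 13.3 and 11.4 CPM against 24.6 and 24.1 CPM, with log2 fold changes of 0.92 and 0.38. With basic transcript lengths in the offset the call for Dtx3l ended (edgeR adjusted p = 0.0747). Cmpk2, a nucleotide kinase of mitochondria, read 5.42 and 5.27 CPM against 10.7 and 9.40 CPM, with log2 fold changes of 0.85 and 0.71.

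The Ifit and Oas families also rose in part. Ifit1 read 11.1 and 10.6 CPM in the control cultures and 19.6 and 19.1 CPM with mLJZD serum, with log2 fold changes of 0.77 and, with the offset, 0.74. Ifit2 read 13.7 and 12.9 CPM against 22.2 and 23.9 CPM, with values of 0.74 and 0.49. Both were called in both fits. Ifit3 read 1.02 and 1.04 CPM against 1.61 and 1.60 CPM and did not pass at this depth (log2 fold change 0.58, edgeR adjusted p = 0.251). Oas2 read 18.1 and 21.4 CPM against 26.9 and 29.97 CPM (0.47, and 0.32 with the offset), and Oas3 52.9 and 58.0 CPM against 75.0 and 79.8 CPM (0.43, and 0.24 with the offset). With basic transcript lengths the calls for Oas2 and Oas3 ended (edgeR adjusted p = 0.13 and 0.0807). Oasl1, already the second of the genes by level, read 156 and 164 CPM against 202 and 202 CPM, and its log2 fold change went from 0.28 to 0.66 with the offset (edgeR adjusted p = 0.00361 and 8.66e-06). Mx2 read 1.84 and 2.30 CPM against 3.96 and 3.58 CPM, a log2 fold change of 0.81 (edgeR adjusted p = 0.0286). Its call ended in DESeq2, with upper-quartile scaling and without control replicate 1 or either mLJZD replicate. Parp12 read 41.3 and 39.96 CPM against 63.2 and 59.2 CPM, and its log2 fold change hardly moved with the offset, from 0.53 to 0.51.

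The sensors rose except for Dhx58. Ifih1 read 21.7 and 23.7 CPM in the control cultures and 41.9 and 45.2 CPM with mLJZD serum, a log2 fold change of 0.89 (edgeR, SE 0.10 and adjusted p = 5.07e-06). With the offset it was 0.30 (edgeR adjusted p = 0.0242), and with basic transcript lengths the call ended (edgeR adjusted p = 0.068). Ddx58 read 43.9 and 45.1 CPM against 67.9 and 72.4 CPM, a log2 fold change of 0.60 (edgeR, SE 0.08 and adjusted p = 2.6e-05) and of 0.36 with the offset. Dhx58 read 4.57 and 5.00 CPM against 5.33 and 4.46 CPM, with overlapping groups and no call.

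The transcription factors did not move together in the cultures. Stat2 read 21.3 and 21.0 CPM against 34.4 and 35.7 CPM, a log2 fold change of 0.67 (edgeR, SE 0.10 and adjusted p = 8.28e-05) and of 0.47 with the offset (edgeR adjusted p = 0.00276). Irf9 read 31.6 and 28.7 CPM against 32.6 and 34.3 CPM and did not pass. Irf7 read 48.1 and 42.7 CPM against 35.2 and 37.3 CPM and fell, with a log2 fold change of -0.38 (edgeR, SE 0.10 and adjusted p = 0.00419). With the offset the value for Irf7 was -0.24 and the call ended (edgeR adjusted p = 0.0736).

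The other 3 genes that fell in the cultures had short transcripts, and none was called with the offset. Bst2, with a transcript of 792 bases, read 327 and 298 CPM in the control cultures and 185 and 181 CPM with mLJZD serum. Its log2 fold change was -0.83 (edgeR, SE 0.08 and adjusted p = 6e-07) and became -0.15 with the offset (edgeR adjusted p = 0.0802). Ifi35, of 1362 bases, went from -0.65 to -0.12, and Oas1a, of 1885 bases, from -0.45 to -0.13. Isg15, the shortest at 756 bases, read 41.3 and 34.8 CPM against 36.7 and 35.0 CPM. Its groups overlapped and its log2 fold change was -0.14 without a call, but with the offset it was 0.46 (edgeR, SE 0.09 and adjusted p = 0.00216), so its direction depended on the offset. Usp18 read 20.5 and 19.4 CPM against 21.9 and 22.6 CPM, with log2 fold changes of 0.10 (edgeR adjusted p = 0.491) and 0.42 with the offset (edgeR adjusted p = 0.0103).

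The markers that define leukocytes were at or near 0 in the cultures. The 8 T and NK cell markers summed to at most 0.341 CPM, the 7 B and plasma cell markers to at most 0.225 CPM, and the 8 neutrophil markers to at most 0.512 CPM in any culture library. The 12 macrophage and monocyte markers summed to 10.3 to 12.6 CPM, with C1qa, C1qb, C1qc, Cd163, Fcgr1 and Ccr2 at 0 in all culture libraries. The dendritic cell list read 52.3 and 47.1 CPM in the control cultures and 73.0 and 71.0 CPM with mLJZD serum. Tcf4, a transcription factor that many other cells use, again made up nearly all of it, while Flt3, Xcr1 and Clec9a were at 0.

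Rsad2 and Mx2 rose in both materials. Oas2, Oas3, Oasl2, Stat2, Parp9, Parp12, Parp14, Dtx3l and Trim30a, 9 genes, fell in the tumours and rose in the cultures, and Oas1a, Irf7 and Bst2 fell in both. With the offset the second of these sets again held 9 genes, with Ifit2 in and Trim30a out, Isg15 joined those that rose in both, and no gene fell in both. The share of all genes with each such pair of calls was not computed, so these sets are a listing without a background. The difference between the effects was tested as the tumour effect minus the culture effect over all 8 libraries. It was called below 0 for 18 of the 35 genes (51.4%) and above 0 for 4 (11.4%), against 20.5% and 23.8% of the 16090 genes tested, 44.4% in all. With the offset it was below 0 for 16 genes, 13 of them the same, and above 0 for none, against 11.5% and 22.5% of all genes, 34.0% in all. The median difference over all genes was 0.07 without and 0.11 with the offset, and that of the 35 genes -0.55 and -0.37.

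Parp14 differed most, by -1.60 (edgeR, SE 0.17 and adjusted p = 8.4e-07) and by -0.70 with the offset (edgeR adjusted p = 0.00255). Samd9l, Eif2ak2, Dtx3l and Parp12 differed by -1.17, -1.12, -1.06 and -0.95, and by -0.58, -0.78, -0.47 and -0.90 with the offset, all called in both fits. Parp12 thus kept nearly its whole difference when the length trend was removed, while that of Parp14 lost more than any other of these 5. The 4 genes with a difference above 0 were Bst2 (0.77), Isg15 (0.62), Ifi35 (0.57) and Oas1a (0.33), all with transcripts under 2000 bases. Their differences with the offset were 0.07, -0.03, 0.07 and 0.05, with no call.

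**Figure D5:**
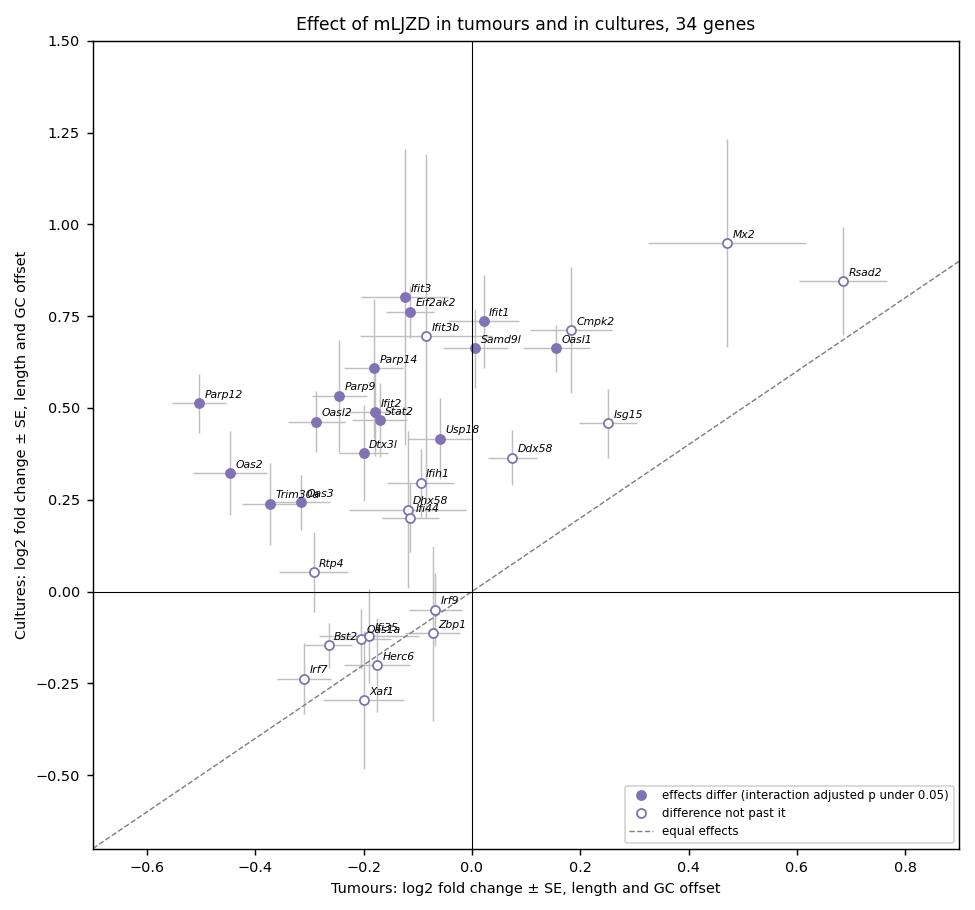
Effect of mLJZD in tumours (x axis) against its effect in cultures (y axis), both as log2 fold changes with standard errors from edgeR with the length and GC offset, for the 34 genes tested in both. Filled points are genes whose 2 effects differed at an adjusted p under 0.05, and the dashed line marks equal effects. Most genes lie in the upper left, higher in the cultures and lower in the tumours, and Rsad2, Mx2 and Isg15 lie in the upper right.

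The control groups of the 2 materials place these changes. In saline tumours 33 of the 35 genes were higher than in control-serum cultures (94.3%), 1 was lower and 1 was not called, with a median log2 fold change of 1.85. Of all 15332 genes tested 80.6% were called, 44.9% higher in the tumours and 35.7% lower, with a median of 0.15. Ifit3, of a family that binds foreign RNA, read 34.9 and 35.6 CPM in saline tumours and 1.02 and 1.04 CPM in the control cultures (log2 fold change 4.93 with an SE of 0.15 in edgeR, adjusted p = 5.93e-10), and its near copy Ifit3b 15.4 and 13.8 CPM against 0.811 and 0.766 CPM (4.04). Parp14 read 143 and 151 CPM against 3.84 and 6.17 CPM (4.72). Zbp1, a sensor of Z-form nucleic acid that can trigger cell death, read 126 and 120 CPM against 3.63 and 5.09 CPM (4.66). Mx1 read 16.0 and 13.9 CPM in the tumours, while 1 of the control cultures had no count, so its fitted value of 6.40 depends on the prior count. Only Oasl1 was lower in the tumours, at 45.1 and 45.4 CPM against 156 and 164 CPM (log2 fold change -1.98 with an SE of 0.06 in edgeR, adjusted p = 2.86e-10). Bst2 was the gene without a call, at 318 and 325 CPM against 327 and 298 CPM. This contrast also followed transcript length, with a median over all protein-coding genes of -0.61 up to 1000 bases and 1.23 above 8000 bases. With the offset Bst2 was higher in the tumours (log2 fold change 0.44, edgeR adjusted p = 2.18e-06), and Oas3 lost its call, going from 0.27 to -0.000332 (edgeR adjusted p = 0.996). The treatment comparisons share these control libraries. Ptprc stood at 110 and 107 CPM in the saline tumours and at 0 in the control cultures, and what part of the tumour level of each gene came from host cells was not tested.

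The rest of the pathway was read from lists of ligands, receptors and signalling, upstream sensing, and further interferon-stimulated genes. Of 21 matched interferon ligand genes, 17 had no count in any library. In the tumours 1 ligand gene was tested and not called (log2 fold change -0.64). In the contrast of the control groups 1 was tested, and it was higher in the saline tumours (7.59). Ifnb1, the first interferon that most cells make, had counts of 0 and 0 in saline tumours, 15 and 1 in mLJZD tumours, 1 and 0 in control cultures, and 0 and 0 in mLJZD-serum cultures. The pooled level of Ifnb1 in the mLJZD tumours was 6.03-fold a floor of 3 counts over the saline group. This ratio is not a lower bound, since 1 library held nearly all of the counts and the other held 1. Ifnb1 was too low for the main test, and without the filter it did not pass (edgeR adjusted p = 0.112).

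Among receptors and signalling genes 6 of 19 rose and 2 fell in the tumours, and 3 of 18 rose and 3 fell in the cultures, or 1 and 3 with the offset. Over all genes 15.4% rose and 16.0% fell in the tumours and 28.8% and 26.6% in the cultures, so the culture counts lay below those shares. Socs1, a feedback inhibitor of the Jak kinases, rose in the tumours from 22.3 and 22.2 to 34.3 and 35.6 CPM (log2 fold change 0.68). In the cultures it read 13.5 and 9.10 CPM against 8.71 and 5.14 CPM (log2 fold change -0.79, edgeR adjusted p = 0.0126, and 0.119 with the offset). Socs3, a related inhibitor, rose in the tumours (0.50), as did Jak1 (0.45), while Ptpn6, a phosphatase of blood cells, fell (-0.43). In the cultures Jak1 (0.75) and Jak2 (0.61) rose and Irf1, a transcription factor of the interferon response, fell (-0.52). With the offset Jak1 alone of these 3 stayed called, at 0.31. Irf1 rose in the tumours (0.27). The receptor genes were not called in the tumours (Ifnar1 -0.06, Ifnar2 0.00). In the cultures Ifnar1 rose by 0.28, which the offset ended, and Ifnar2 stood at -0.08.

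Among upstream sensing genes and adaptors none of 22 rose and 6 fell in the tumours at an adjusted p under 0.05 in edgeR, and with the offset 3 rose and 7 fell, against the same 15.4% and 16.0% of all genes, or 16.6% and 16.8% with the offset. Tlr7, an endosomal RNA receptor, had the largest fall (-0.58), and the adaptor Mavs (-0.32) and the kinase Ikbke (-0.26) fell as well. In the cultures 10 of 20 rose and 3 fell, or 6 and 2 with the offset, where all genes had 28.8% and 26.6%, or 17.8% and 19.1%. The ubiquitin ligase Trim56 (1.08) and the adaptor Traf3 (0.85), whose transcripts are long, were at 0.19 and 0.24 with the offset, where Trim56 did not pass. Mb21d1, which encodes the DNA sensor cGAS, kept 0.72 of 1.00, and the RNA receptor Tlr3 kept 0.58 of 0.96. Irf3, the factor that starts interferon transcription, stood at -0.04 in the tumours and fell in the cultures (-0.53), where the offset left -0.09 without a call.

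Of 55 further interferon-stimulated genes tested in the tumours, 7 rose and 21 fell, where all genes had 15.4% and 16.0%, with a median of -0.13, which equals that of the 35 genes. Ccl5, a chemokine that attracts T cells, rose from 10.7 and 10.1 to 23.6 and 22.3 CPM (log2 fold change 1.17 with an SE of 0.11 in edgeR, adjusted p = 4.75e-07). The largest falls were those of Hsh2d (-1.07), at 3.61 and 3.08 CPM against 1.26 and 1.87 CPM, of Ifitm1 (-0.93), which blocks virus entry, and of Apol9b (-0.75). In the cultures 15 of 47 rose and 13 fell, close to the 28.8% and 26.6% of all genes, or 13 and 8 with the offset against 17.8% and 19.1%. The median was 0.13, below the 0.51 of the 34 genes. Ly6a, a surface protein of the Ly6 family, fell from 12.3 and 11.9 to 4.60 and 2.86 CPM (-1.79, and -1.37 with the offset). Ifi27l2a (-1.67, and -1.07 with the offset) and Ifitm2 (-1.56, and -0.91 with the offset) fell as well and stayed called. Gm4951 had the largest rise (1.70) at levels under 1 CPM, from 0.213 and 0.180 to 0.881 and 0.511 CPM, and was not called with the offset.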

How the data were processed

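The authors deposited raw counts per gene, 1 column per library. The submitters' processing notes name the build GRCm39 and, with no role or order, featureCounts 2.0.3, HISAT2 2.2.1, SAMtools 1.14, FastQC 0.12.1 and Trim Galore. Strand setting, annotation release and the rule for reads that fit several places: not given in the sources used here. Symbols, transcript lengths and GC content came from GENCODE M21 by identifier, with 52029 of 56953 identifiers named, and promoter windows from RefSeq on GRCm38.p6.

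All genes were fitted in R 4.3.3 with the two-sided quasi-likelihood F test of edgeR 4.0.16, with TMM normalization and the filterByExpr filter. P-values were adjusted by Benjamini-Hochberg over every gene in the fit, and a gene was called where that value was under 0.05. Each treatment comparison and the contrast of the control groups used its own 4 libraries, and the difference of effects all 8. The SE was taken from the size of the log2 fold change over the root of its F statistic. The offset subtracts, per library, a spline of 5 degrees of freedom each on log2 length and GC content, fitted to genes with a mean count of at least 50. Groups of 2 cannot pass an exact permutation test, so the p-values come from a model that shares its estimate of spread over genes. A floor of 3 counts covers counting error only. Alternatives were DESeq2 1.42.0, library totals, upper-quartile scaling, no filter, the replicate block, 1 fit of all 8 libraries, the offset, and leaving out each replicate. The offset with basic transcript lengths and a crossed block were chosen after seeing the data. The fits were tested on simulated data with 200 changed genes. With a length trend put into the simulated mLJZD-serum cultures, 97.1% of the calls without the offset were genes not set to change. With the offset that share was 3.68%. The simulated trend was a straight line on the same log2 lengths that the offset models, with no trend on GC content. Its removal was thus built in, and the share does not carry over to the real cultures. Of simulated 1.5-fold differences of effects 32.8% were called, so a difference without a call may be a missed one.

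The 35 genes and the other lists were chosen with earlier results of these data known. Values in every library are given for the transcription factors, the sensors, Isg15, Usp18 and the 8 largest called changes per treatment comparison. For the difference of effects and the control contrast the 5 largest per direction are named, and for the other lists up to 4 called genes per comparison, with Irf1, Irf3, Ifnb1, Ifnar1 and Ifnar2 in any case. The cell type markers are lists for bulk material and name no cell. Some genes of these lists are not reported here. Other genes named in the text were chosen after their values were seen. Pairs of libraries of a group differed beyond sampling noise (chi-square per degree of freedom 2.79 to 12.5), so none was counted as a repeat.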

Additional observations from a re-analysis of the deposited data

Results flagged for a closer look

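For 22 of the 35 genes the effect of mLJZD differed between tumours and cultures in the interaction test of edgeR over all 8 libraries, at an adjusted p under 0.05. Each value is the tumour effect minus the culture effect on the log2 scale.

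Of the differences below 0, those of Parp14 (-1.60), Samd9l (-1.17), Eif2ak2 (-1.12), Dtx3l (-1.06), Parp12 (-0.95), Oas2 (-0.85), Parp9 (-0.85), Ifit2 (-0.80), Stat2 (-0.78), Trim30a (-0.74), Oasl2 (-0.70), Oas3 (-0.70) and Ifit1 (-0.63) were called with the length and GC offset too. Those of Ifih1 (-0.90), Cmpk2 (-0.55), Ifi44 (-0.51), Ddx58 (-0.43) and Herc6 (-0.35) were not called with the offset, where their adjusted p-values in edgeR were 0.0515, 0.0931, 0.12, 0.212 and 0.548.

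The differences above 0 were those of Bst2 (0.77), Isg15 (0.62), Ifi35 (0.57) and Oas1a (0.33). With the offset they were 0.07, -0.03, 0.07 and 0.05, with edgeR adjusted p-values of 0.549, 0.939, 0.785 and 0.82.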

How the results depend on the processing

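With 2 libraries a group, small changes were near the limit of detection. The main tumour counts of 3 higher and 13 lower became 2 to 3 and 1 to 12 when a replicate was left out, and 7 lower with all 8 libraries in one fit. Without mLJZD replicate 1 or 2 the genes called over the whole table fell from 4835 to 1087 and 1974. The cause was not tested. With the offset the tumour count was 16 lower, and 10 to 16 when a replicate was also left out. In the cultures 20 genes rose and 4 fell, with 19 to 20 and 3 to 5 when a replicate was left out. The offset gave 0 lower, 1 with the replicate block added (Irf7) and 0 with basic transcript lengths, and it called 4912 genes in all against 7365. The offset and a left-out replicate together gave 15 to 16 higher and 0 to 2 lower. For the difference of effects the count above 0 went from 4 to 0 with the offset, 0 with the offset and block, and 0 with basic lengths, and was 3 to 4 without single replicates. The count lower in saline tumours than in control cultures was 1, and 2 with all 8 libraries in one fit, and 1 to 2 without single replicates.

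Isg15 reversed. In the cultures its log2 fold change was -0.14, and 0.458 with the offset, 0.463 with the offset and replicate block and 0.464 with basic lengths. Its difference of effects was 0.62, and -0.0266, -0.0317 and -0.0472 under the same settings. The offset removes the trend with length by construction, and Isg15 has the shortest transcript of the 35.

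Scaling moved the centre of all genes. Upper-quartile scaling set the culture median at -0.125, with 42.0% of called genes higher against 51.9% in the main fit. For the difference of effects, library totals gave a median of -0.0946 and 39.7% higher against 53.7%, and the offset 66.2%. For the control groups, library totals moved the median from 0.152 to 0.315.

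Deviations of same-numbered libraries correlated at -0.296 in the tumours and -0.0343 in the cultures, so equal numbers did not mark like libraries. In the tumours the value below 0 means that saline replicate 1 deviated with mLJZD replicate 2, and saline replicate 2 with mLJZD replicate 1. The crossed block, which groups them so, called 5411 genes over the whole table against 4835 in the main fit. The source of this shared pattern was not tested. The replicate block gave 4 higher and 12 lower in the tumours, where the call for Bst2 ended and Cmpk2 was gained, and 20 higher and 4 lower in the cultures. The crossed block in the tumours gave 4 and 14. The stricter promoter motif was found in 7 genes in place of 13.

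Over the single genes in the tumours, 429 of the values under alternatives stayed on their side of the threshold, 41 lost a call and 20 gained one. In the cultures these numbers were 404, 27 and 8, beside the 3 reversed values of Isg15. Some genes without a call, such as Ifit3b and Dhx58 in the tumours and Herc6, Ifit3b, Irf9 and Zbp1 in the cultures, changed sign between settings.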

Other observations

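Several of the genes lie next to each other among the protein-coding genes of a chromosome in RefSeq, and their log2 fold changes, each without the offset, stand here side by side. Rsad2 and Cmpk2 on chromosome 12, with no protein-coding gene between them, had log2 fold changes of 0.71 and 0.21 in the tumours and 1.16 and 0.85 in the cultures. Parp14, Dtx3l and Parp9 follow each other on chromosome 16, with -0.24, -0.22 and -0.23 in the tumours and 1.44, 0.92 and 0.69 in the cultures. Oas2 and Oas3 on chromosome 5 had -0.46 and -0.36, and 0.47 and 0.43. Oasl2 and Oasl1, also neighbours on chromosome 5, had -0.29 and 0.14 in the tumours, where only the first was called, and 0.50 and 0.28 in the cultures. The likeness of neighbours was not tested, and reads of near copies may be shared.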
